A study of Triticum aestivum with 12 samples.

Results

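The short-arm tips of wheat chromosomes 1A, 1B and 1D were examined in developing grains of 2 cultivars. The members were all features of the deposited count table that lay on these chromosomes and started within the first 10000000 bases. The rule used position only, and it gave 798 of the 120744 features in the table: 321 on 1A, 226 on 1B and 251 on 1D. The coordinates come from the count table and refer to assembly v1.0 (IWGSC RefSeq) of the cultivar Chinese Spring, with gene annotation v1.1. Grains of the hard red winter wheats TAM112 and TAM111 were sampled from field-grown plants at 14 and 5 days after flowering (DAF, written DAP in the sample labels). The labels name no treatment. Neither they nor the study describe the structure of these tips in either cultivar, and a stretch that is missing, replaced or diverged from Chinese Spring in a cultivar cannot be told apart from genes that were not expressed, which bears on every low value below, those of 1A in TAM112 included. Each of the 4 groups (TAM112 at 14 DAF, TAM111 at 14 DAF, TAM112 at 5 DAF and TAM111 at 5 DAF) had 3 libraries of poly-A selected RNA, 12 in all. Each library was made from several grains of 1 inflorescence, and the labels do not say whether replicates came from separate plots, so p-values measure the spread between these samples only.

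In bread wheat the tips of the group 1 short arms carry the Gli-1 and Glu-3 loci. Gli-1 holds the genes of most γ- and ω-gliadins, and Glu-3 those of the low-molecular-weight subunits of glutenin. Both are families of intronless genes, expressed in the starchy endosperm during grain filling, and their products are major parts of gluten. These proteins contribute to the extensibility and strength of dough, and breeders follow the alleles at each of the 3 homoeologous loci.

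The label of storage protein loci could be checked only in part. The deposited table gives identifiers without gene names, and 0 of the 798 identifiers were found in the RefSeq gene table. In that table, which is on the later assembly IWGSC CS RefSeq v2.1, 1 gene on 1A, 2 genes on 1B and 4 genes on 1D carry Gli-1 or Glu-3 among their synonyms, and these cannot be matched to members. Members are therefore described by identifier, position and structure: single-exon genes, genes of more than 1 exon (multi-exon), and non-coding features. The tissue label could not be checked against named endosperm, embryo or pericarp genes for the same reason. In RNA from whole grains, fewer cells of a type and less RNA per cell cannot be told apart.

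The 3 tips held similar numbers of single-exon genes, 66 on 1A, 64 on 1B and 66 on 1D. Multi-exon genes numbered 144, 160 and 182 on 1A, 1B and 1D. The remaining members were non-coding features, of which 1A held 109 in its first 1 Mb alone, against 2 on all of the 1B tip and 3 on the 1D tip. Much of each tip was silent in these grains. No count in any library was found for 74 members on 1A, 88 on 1B and 80 on 1D, and 132, 117 and 106 members in the same order never exceeded 3 counts in a library. After the filter on low counts 334 members could be tested, 141 on 1A (23 single-exon, 62 multi-exon and 56 non-coding), 85 on 1B (23 and 62 coding) and 108 on 1D (23 and 85 coding). A member that passed the filter only through the group in which it was high had to differ, so counts over tested members are set beside the same counts over all 65080 tested features.

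Library depth was 31916077 to 40464882 counts, and 1 count was worth 0.0231 to 0.0362 CPM, the count scaled by the TMM-adjusted library size. Some libraries stood apart in the single-exon genes of the tips. Their summed level at 14 DAF was 28960 CPM in replicate 3 of TAM112, against 4667 and 7490 CPM in replicates 1 and 2. Replicate 3 of TAM111 at 14 DAF had 80348 CPM, below the 132064 and 153378 CPM of the other two. At 5 DAF, replicate 1 of TAM112 held 420 CPM, against 122 and 55.6 CPM in replicates 2 and 3. Sums are given with and without these libraries below. When library sizes were used with no TMM factor, the median log2 fold change between cultivars over all tested features at 14 DAF was 0.45 instead of −0.01, and 82.6% instead of 48.5% of all calls were higher in TAM112. For the stage comparison in TAM111, 41.8% instead of 56.0% of the calls were then higher at 14 DAF.

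The single-exon genes carried most of the signal of the tips at 14 DAF in every library, except on 1A in TAM112. There the multi-exon sum was higher in replicates 1 and 2 (176 and 169 CPM, against 61.0 and 136 CPM). All 3 tips had a lower single-exon sum in TAM112. On 1A the 66 single-exon genes summed to 61.0, 136 and 699 CPM in the 3 TAM112 libraries, against 24853, 29765 and 15875 CPM in TAM111. The groups were far apart, and the mean was 78.6-fold lower in TAM112 (299 ± 349 against 23497 ± 7043 CPM, SD, n = 3 each). On 1B the sums were 2641, 4111 and 14358 CPM in TAM112, against 43218, 49053 and 24960 CPM in TAM111, a mean 5.55-fold lower in TAM112. On 1D they were 1965, 3243 and 13903 CPM in TAM112, against 63994, 74560 and 39513 CPM in TAM111, a mean 9.32-fold lower. On each tip the highest TAM112 library was below the lowest TAM111 library. Without replicate 3 of TAM112 the means were 238-fold lower on 1A, 11.6-fold lower on 1B and 22.8-fold lower on 1D. Without replicate 3 of TAM111 they were 91.4-fold, 6.56-fold and 10.9-fold lower, in the same order. With 3 libraries against 3, an exact permutation test of a single sum cannot go below p = 0.1, so no test of the sums is given.

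Of all counts in a library, the 3 tips took 0.788%, 1.08% and 3.46% in TAM112 at 14 DAF, against 11.4%, 11.9% and 7.22% in TAM111 at 14 DAF. At 5 DAF they took 0.205% to 0.287% in TAM112 and 0.223% to 0.229% in TAM111.

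**Figure D1:**
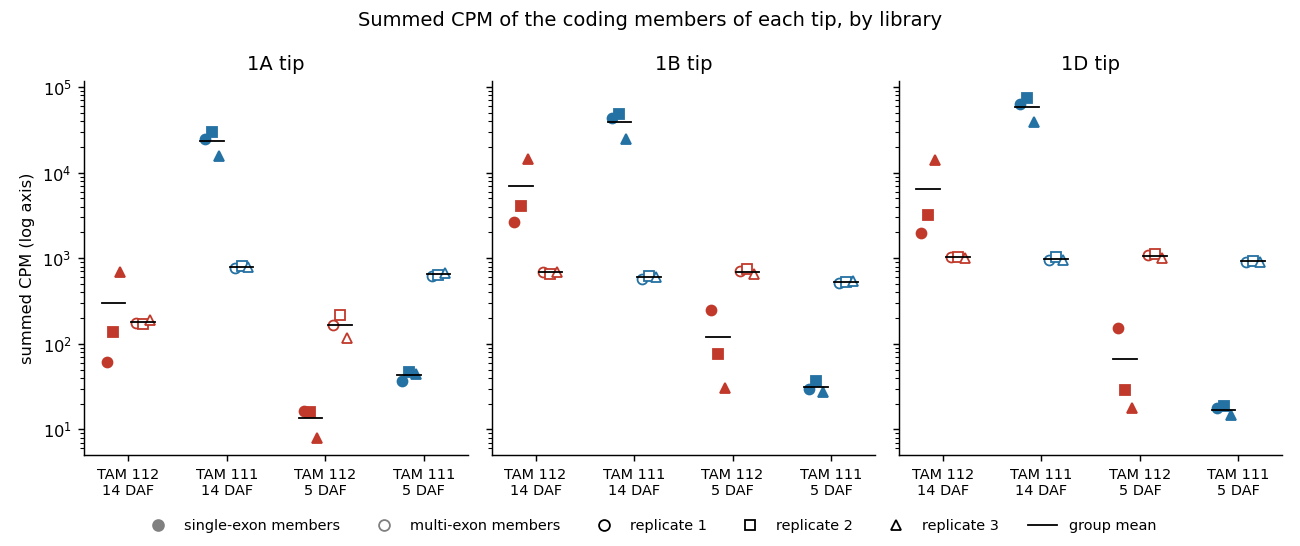
Summed CPM (log axis) of the single-exon (filled) and multi-exon (open) members of each tip in every library, by cultivar and stage, with the group mean as a bar. The filled points differ between cultivars at 14 DAF on all 3 tips. The open points do not overlap between cultivars on 1A (lower in TAM112) and 1B (higher in TAM112) at both stages, and on 1D (higher in TAM112) at 5 DAF.

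The division of this signal among the tips differed between the cultivars. The 1A tip gave 1.31%, 1.82% and 2.41% of the single-exon sum of the 3 tips in TAM112 at 14 DAF, against 18.8%, 19.4% and 19.8% in TAM111. The 1B tip gave 56.6%, 54.9% and 49.6% in TAM112, against 32.7%, 32% and 31.1% in TAM111. The 1D tip gave 42.1%, 43.3% and 48.0% in TAM112, against 48.5%, 48.6% and 49.2% in TAM111. None of these shares overlapped between the cultivars. Replicate 3 of TAM112, which stood apart in its sum, was on 1D nearer to the TAM111 libraries than to the other TAM112 libraries. At 5 DAF, when the sums were low, 1A gave 3.92% to 14.2% in TAM112 and 43.9% to 51.9% in TAM111. The 1A share was thus lower in TAM112 at both stages, but on different genes. At 5 DAF most of the 1A sum of TAM111 came from TraesCS1A02G007900, described below. At 14 DAF that gene gave 0.112%, 0.0833% and 0.219% of the 1A sum in the TAM111 libraries.

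**Figure D2:**
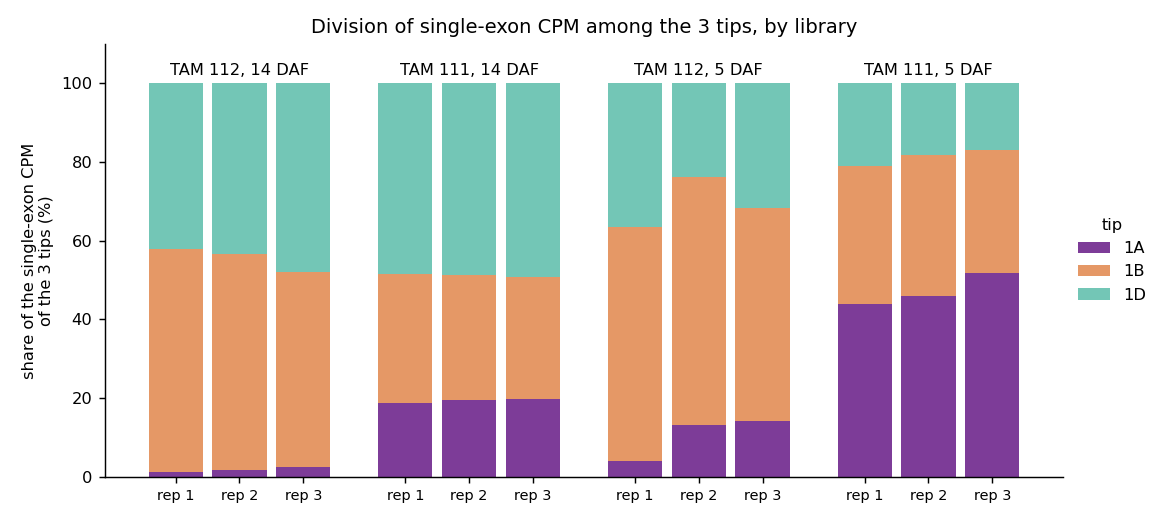
Share of the summed single-exon CPM of the 3 tips that lay on 1A, 1B and 1D, in percent, 1 bar per library. The 1A share at 14 DAF is 1.31% to 2.41% in TAM112 and 18.8% to 19.8% in TAM111.

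A few single-exon genes made up nearly all of these sums. The TPM value, which scales counts by gene length as well as depth, exceeded 100 in the mean of a 14 DAF group for 9 single-exon genes on 1A, 12 on 1B and 15 on 1D. All 36 exceeded this level in TAM111 and 22 of them did so in TAM112 (1 on 1A, 8 on 1B and 13 on 1D), so the list leans to genes high in TAM111 and is a description only. In every TAM111 library at 14 DAF they held at least 99.0% of the single-exon CPM of their tip. In TAM112 at 14 DAF they held at least 86.0% on 1A, 98% on 1B and 98.8% on 1D. The 36 genes were 210 to 1377 bases long with a median of 1018 bases, and 15 lay on the plus strand and 21 on the minus strand. Only 5 multi-exon members reached the same level, 1 on 1A, 1 on 1B and 3 on 1D. Over the whole table, 544 of the 2071 coding genes over 100 TPM at 14 DAF (26.3%) had a single exon.

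These genes lay in clusters at different distances from the chromosome end. On 1A they started between positions 3019865 and 4202212, and the windows of 3 to 4 Mb and 4 to 5 Mb gave 54.5% and 42.6% of the single-exon sum of the tip in TAM112 and 22.6% and 77.3% in TAM111. On 1B they started between 4965664 and 6436426, and the window of 5 to 6 Mb gave 70.9% in TAM112 and 60.3% in TAM111. On 1D they were spread from 84681 to 7155530, with 73.8% in TAM112 and 70.4% in TAM111 within the first 1 Mb. A smaller group on 1D between 5 and 6 Mb gave 13.8% in TAM112 and 14.4% in TAM111. The division among windows, taken from group means, was therefore near equal between cultivars on 1D and unequal on 1A. The unequal division on 1A leaned on replicate 3 of TAM112, which held 699 CPM, against 61.0 and 136 CPM in replicates 1 and 2. TraesCS1A02G005368, between 3 and 4 Mb, gave 26.6% of the 1A sum in replicate 3, against 11.3% and 7.52% in replicates 1 and 2. TraesCS1A02G007400, between 4 and 5 Mb, gave 24.7% in replicate 3, against 34.8% and 53.6%.

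**Figure D3:**
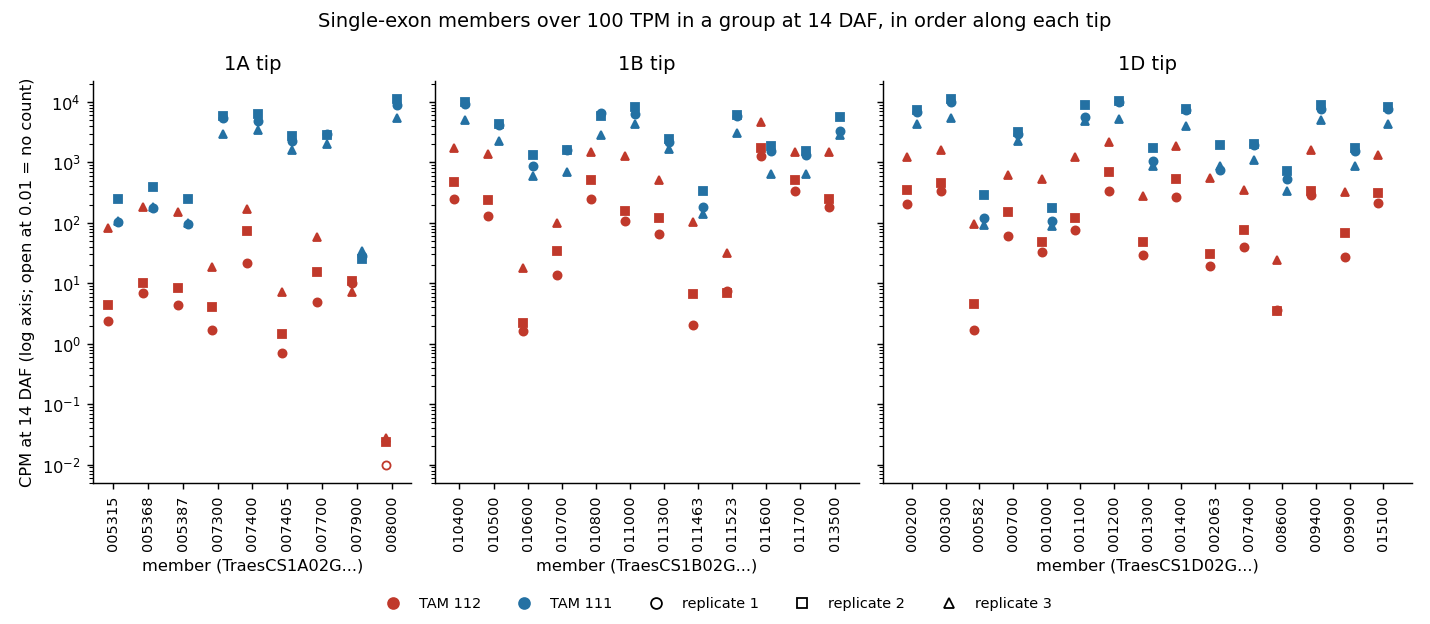
CPM at 14 DAF (log axis) of the 36 single-exon genes over 100 TPM in a group, in order along each tip, with 3 libraries of TAM112 left and 3 of TAM111 right at each gene. Symbols mark replicates, and an open symbol at the bottom marks no count. Replicate 3 of TAM112 is the highest of its group at 35 of the 36 genes.

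The 4 most abundant genes of the 1A tip were all lower in TAM112 at 14 DAF. TraesCS1A02G008000 (4202212 to 4203588, minus strand) had the highest TPM of the tip in TAM111 and was at the floor of 3 counts per library in TAM112. It had 0, 0.0241 and 0.0278 CPM in TAM112, each at most 1 count, against 8817, 11046 and 5403 CPM in TAM111. This was at least 112000-fold lower in TAM112 against the floor, with adjusted p = 1.60e-06 in the quasi-likelihood F test of edgeR, adjusted by Benjamini-Hochberg over all 65080 features. All adjusted p-values that follow come from this test unless another is named. TraesCS1A02G007300 (3845783 to 3847150) had 1.70, 4.0 and 18.9 CPM in TAM112, against 5345, 5738 and 2912 CPM in TAM111 (log2 fold change −9.15 ± 1.1 SE, adjusted p = 0.000302). TraesCS1A02G007700 (4053221 to 4053823) had 4.96, 15.2 and 57.3 CPM in TAM112, against 2946, 2786 and 2002 CPM in TAM111 (−6.64 ± 1.13, adjusted p = 0.00195). This call was lost without replicate 2 of TAM112 at 14 DAF (adjusted p = 0.0122). TraesCS1A02G007400 (4033339 to 4034196) had 21.3, 73 and 172 CPM in TAM112, against 4871, 6275 and 3389 CPM in TAM111 (−5.77 ± 1.18, adjusted p = 0.00482). Its groups did not overlap, but the call was lost without replicate 1 or 2 of TAM112 or any 1 replicate of TAM111 at 14 DAF (adjusted p = 0.0118 to 0.0256). Its mean was the only one among the 9 abundant 1A genes to pass 100 TPM in TAM112 (153 TPM, against 5156 TPM in TAM111).

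The same 9 genes took unequal parts of the 1A sum in the cultivars. TraesCS1A02G008000 gave 35.5%, 37.1% and 34.0% of the single-exon sum of the tip in TAM111 and at most 0.018% in TAM112. TraesCS1A02G007300 gave 2.79%, 2.94% and 2.71% in TAM112, against 21.5%, 19.3% and 18.3% in TAM111. A trio of neighbouring minus-strand genes starting at 3019865, 3074492 and 3094066 gave larger parts in TAM112. Of these, TraesCS1A02G005368 gave 11.3%, 7.52% and 26.6% in TAM112, against 0.710%, 1.33% and 1.16% in TAM111. The trio was named after its values were seen.

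On 1B the 4 most abundant genes were each lower in TAM112 in all libraries at 14 DAF, and 1 of them passed the test. TraesCS1B02G010400 (4965664 to 4966572) had 245, 466 and 1726 CPM in TAM112, against 9254, 9830.4 and 5103 CPM in TAM111 (−3.31 ± 1.30, adjusted p = 0.0649). TraesCS1B02G011000 (5142047 to 5142922) had 106, 158 and 1291 CPM in TAM112, against 6306, 8133 and 4369 CPM in TAM111 (−3.60 ± 1.34, adjusted p = 0.0538). For both genes replicate 3 of TAM112 lay several-fold above the other TAM112 libraries and below the TAM111 libraries. TraesCS1B02G010800 (5099315 to 5100366) had 247, 507 and 1489 CPM in TAM112, against 6585, 5959 and 2868 CPM in TAM111 (−2.78 ± 1.15, adjusted p = 0.0771). TraesCS1B02G010400 passed the threshold without replicate 3 of TAM112 at 5 DAF (adjusted p = 0.0058).

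TraesCS1B02G011523 (5519694 to 5520761, minus strand) was the exception among them. It had 7.34, 6.91 and 32.1 CPM in TAM112, against 5784, 6120.4 and 3108 CPM in TAM111, and the difference passed the test (−8.34 ± 1.46, adjusted p = 0.00225). It gave 0.278%, 0.168% and 0.224% of the single-exon sum of 1B in TAM112, against 13.4%, 12.5% and 12.5% in TAM111. The call was lost without replicate 1 or without replicate 2 of TAM112 at 14 DAF (adjusted p = 0.0131 and 0.0132).

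TraesCS1B02G011600 (5584161), named after its values were seen, did not share the lower level of its neighbours in TAM112. It had 1255, 1757 and 4617 CPM in TAM112, against 1545, 1853 and 637 CPM in TAM111, and the groups overlapped (0.92 ± 1.29, adjusted p = 0.604). Replicates 1 and 2 of TAM112 lay within the range of TAM111, and replicate 3 alone lay above it. Its mean of 2881 TPM in TAM112 was the highest of any single-exon member in that cultivar at 14 DAF, against 930 TPM in TAM111. It gave 47.5%, 42.7% and 32.2% of the single-exon sum of 1B in TAM112, against 3.58%, 3.78% and 2.55% in TAM111. Its neighbour TraesCS1B02G011700 (5686608) gave 12.8%, 12.3% and 10.2% in TAM112, against 3.10%, 3.10% and 2.61% in TAM111. The part of these 2 genes in the 1B sum thus did not overlap between cultivars, while their levels did.

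On 1D the most abundant genes were lower in TAM112 in every library at 14 DAF, but none of the 4 passed the test. TraesCS1D02G001200 (321910 to 322893) had 336, 687 and 2211 CPM in TAM112, against 9995, 10450.3 and 5265 CPM in TAM111 (−2.99 ± 1.34, adjusted p = 0.101). TraesCS1D02G000300 (99355 to 100422) had 335, 448 and 1604 CPM in TAM112, against 9780, 11029 and 5340.1 CPM in TAM111 (−3.45 ± 1.31, adjusted p = 0.0579). Both had the pattern seen on 1B, with a wide spread within TAM112 set by replicate 3. TraesCS1D02G001100 (259657 to 260544) had 77.5, 121 and 1207 CPM in TAM112, against 5650.4, 8874 and 4879 CPM in TAM111 (−3.79 ± 1.44, adjusted p = 0.0577). TraesCS1D02G009400 (5139131 to 5140186) had 287, 338 and 1586 CPM in TAM112, against 7648, 8937 and 4928 CPM in TAM111 (−3.28 ± 1.22, adjusted p = 0.0541). Without replicate 3 of TAM112 at 5 DAF, TraesCS1D02G000300 and TraesCS1D02G009400 passed (adjusted p = 0.00907 and 0.00738). The parts of the 1D sum overlapped between the cultivars for TraesCS1D02G000300 and TraesCS1D02G009400. The latter gave 14.6%, 10.4% and 11.4% in TAM112, against 12%, 12% and 12.5% in TAM111. They did not overlap for the other 2 genes. TraesCS1D02G001100 gave 3.94%, 3.72% and 8.68% in TAM112, against 8.83%, 11.9% and 12.3% in TAM111. TraesCS1D02G001200 gave 17.1%, 21.2% and 15.9% in TAM112, against 15.6%, 14.0% and 13.3% in TAM111.

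Of the 36 abundant single-exon genes, 10 were called lower in TAM112 at 14 DAF (6 on 1A, 3 on 1B and 1 on 1D) and 0 were called higher. Over all tested features, 7.45% were called lower and 7.02% higher. The list leans to genes high in TAM111, so its direction and these counts are a description only. The groups did not overlap for 30 of the 36, all lower in TAM112 (7 on 1A, 10 on 1B and 13 on 1D). Among all tested features, 28.8% did not overlap and were lower in TAM112. A further 27.1% of all tested features did not overlap and were higher in TAM112. In a comparison chosen after seeing the data, 14 of the 36 were called lower without replicate 3 of TAM112 at 14 DAF (7 on 1A, 3 on 1B and 4 on 1D). Without replicate 2 of TAM112 at 14 DAF, 5 were called, and without replicate 1, 6 were called. Over all features, in either direction, the fit without replicate 3 called 9716 of 66953. The fit without replicate 2 called 5104 of 66372, and that without replicate 1 called 5346 of 66390. Genes of these families are often near-identical in sequence, and how the counting treated reads with several matches is not given in the sources used here. The level of any single gene is therefore less certain than the sum of its tip.

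Across all members of the tips, the cultivar comparison at 14 DAF went in opposite directions on 1A and 1B. A member was called when its log2 fold change exceeded 1 in size with an adjusted p under 0.01. On 1A 45 of 141 tested members (31.9%) were lower in TAM112, against 7.45% of all tested features, and 2 (1.42%) were higher, against 7.02%. On 1B 20 of 85 (23.5%) were higher in TAM112 and 9 (10.6%) were lower. On 1D 9 of 108 (8.33%) were higher and 7 (6.48%) were lower, both near the share over all features. Library sizes alone gave 28 higher and 7 lower on 1B, 22 higher and 6 lower on 1D, and 4 higher and 40 lower on 1A. Over all features that setting called 13717 of 65080, and 82.6% of these calls were higher in TAM112, so its higher counts do not set 1D apart. The median log2 fold change of the tested members was −0.87 on 1A, 0.30 on 1B and −0.16 on 1D, beside −0.01 over all features. The number of calls on 1D was 10 without replicate 2 of TAM111 and 24 without replicate 3 of TAM112, in place of 16.

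**Figure D4:**
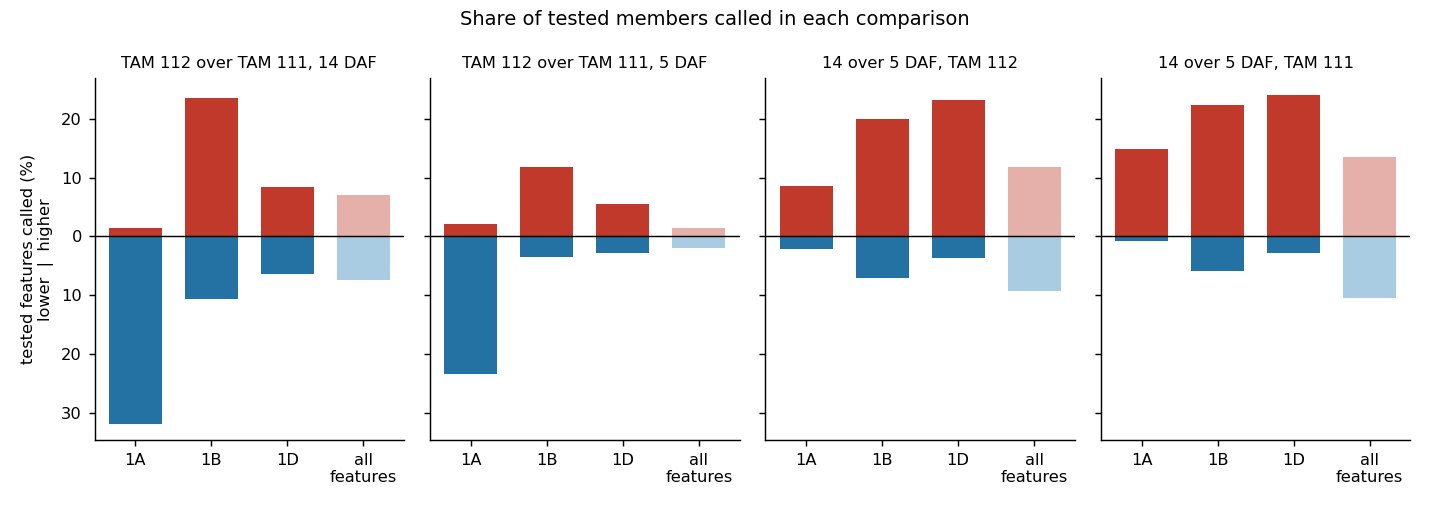
Percent of tested features called higher (above 0) and lower (below 0) on each tip and over all features, for the 2 cultivar and 2 stage comparisons. On 1A 31.9% of tested members are lower in TAM112 at 14 DAF, and on 1B 23.5% are higher.

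At 5 DAF the same contrast between the tips was seen with fewer calls. On 1A 33 of 141 (23.4%) were lower in TAM112, against 1.93% of all tested features, and 3 (2.13%) were higher, against 1.45%. On 1B 10 of 85 (11.8%) were higher and 3 (3.53%) were lower. On 1D 6 of 108 (5.56%) were higher and 3 (2.78%) were lower. Of the 33 called lower on 1A at 5 DAF, 30 were also called lower at 14 DAF, which was 90.9% of the 5 DAF list and 66.7% of the 14 DAF list. All 10 called higher on 1B at 5 DAF were among the 20 called at 14 DAF. Calls on 1D at 5 DAF numbered 4 without replicate 1 of TAM112 and 5 without replicate 2, and those on 1B numbered 8 without replicate 2 of TAM111.

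Both coding classes contributed to the lower calls on 1A, and the higher calls on 1B were nearly all multi-exon. At 14 DAF the calls lower in TAM112 on 1A were 12 single-exon, 31 multi-exon and 2 non-coding members, and at 5 DAF they were 3, 28 and 2. At 14 DAF this was 52.2% of the tested single-exon and 50% of the tested multi-exon members, and at 5 DAF 13% and 45.2%. On 1B, 19 of the 20 calls higher in TAM112 at 14 DAF were multi-exon, as were all 10 at 5 DAF. Of the tested multi-exon members of 1B, 30.6% were higher and 9.68% lower in TAM112 at 14 DAF, and of those of 1D 9.41% were higher and 5.88% lower, the 1D shares being near those over all features (7.02% and 7.45%). The median log2 fold change of the 23 tested single-exon members at 14 DAF was −2.39 on 1A, −2.30 on 1B and −2.99 on 1D, beside −1.74, 0.79 and 0.24 for the tested multi-exon members. With groups at the floor set to their bound, the single-exon median on 1A was −1.90 and the multi-exon median on 1B was 0.70.

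The multi-exon genes of 1A had a lower summed level in TAM112 at both stages. The 144 members summed to 176, 169 and 190 CPM in TAM112 at 14 DAF, against 777, 815 and 800 CPM in TAM111, a mean 4.47-fold lower. At 5 DAF they summed to 168, 216 and 117 CPM in TAM112, against 621, 639 and 678 CPM in TAM111, a mean 3.87-fold lower. At 14 DAF the TAM112 libraries lay close together, unlike their single-exon sums. On 1B the multi-exon sums were 693, 663 and 695 CPM in TAM112 at 14 DAF, against 569, 618 and 608 CPM in TAM111. On 1D they were 1032, 1037 and 1018 CPM in TAM112, against 941, 1032 and 958 CPM in TAM111. At 5 DAF the 1B sums were 704, 741 and 646 CPM in TAM112, against 513, 528 and 540 CPM in TAM111. The 1D sums at 5 DAF were 1082, 1129 and 1002 CPM in TAM112, against 915, 940 and 910 CPM in TAM111. The multi-exon sums were thus higher in TAM112 without overlap on 1B at both stages and on 1D at 5 DAF.

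**Figure D5:**
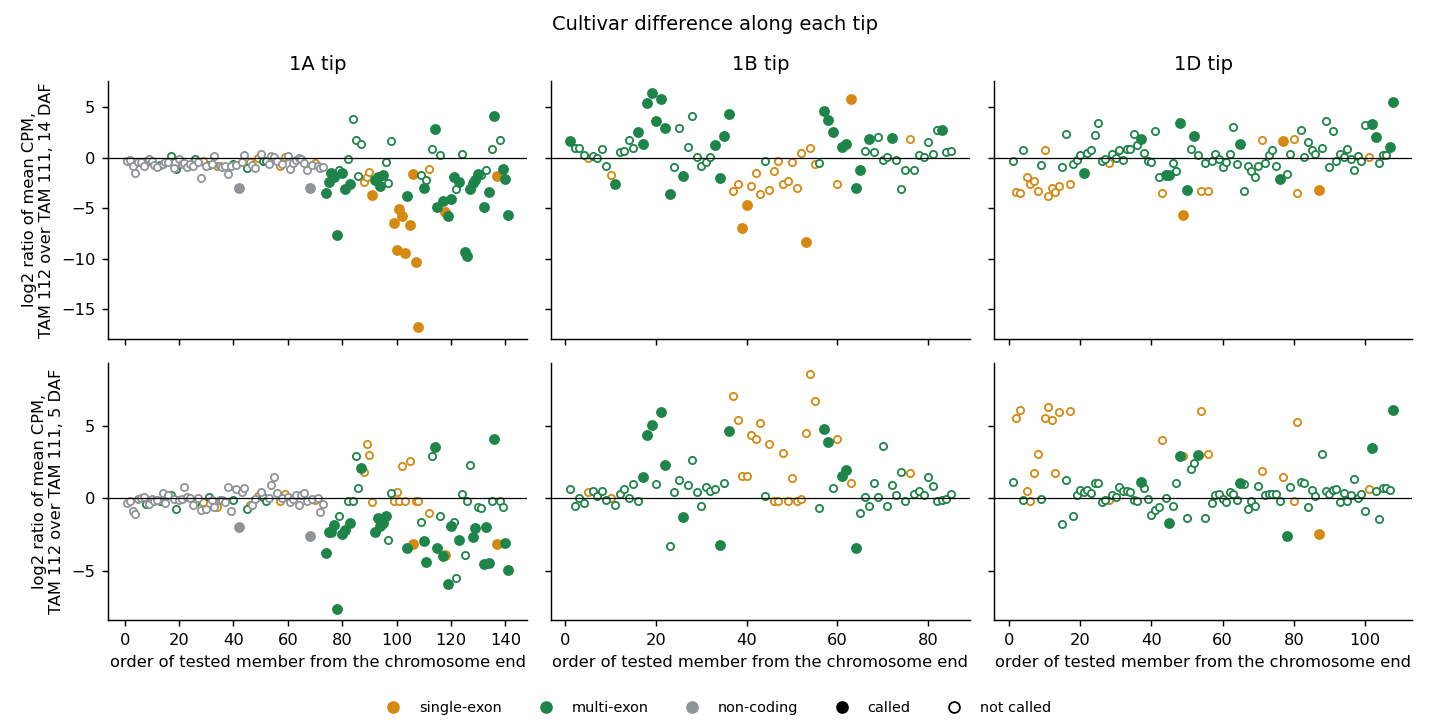
Log2 ratio of mean CPM, TAM112 over TAM111, for the tested members in order from the chromosome end, at 14 DAF (top) and 5 DAF (bottom), with colours for single-exon, multi-exon and non-coding members and filled points for calls. Group means under the CPM of 3 counts were set to it. On 1A the first 73 tested members, mostly non-coding, hold 2 calls at each stage, and most calls beyond them lie below 0. The 56 tested non-coding members of 1A have a median log2 fold change of −0.62 at 14 DAF and −0.09 at 5 DAF.

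Along 1A most lower calls lay beyond the first 1 Mb. The first 1 Mb held 73 tested members with 2 calls, both lower in TAM112 at 14 DAF, while the next 1 Mb held 9 tested members with 7 calls, all lower. Each of the 9 windows beyond the first held between 1 and 8 lower calls at 14 DAF. On 1B the higher calls were most numerous between 1 and 2 Mb (7 of 19 tested) and between 6 and 7 Mb (4 of 5 tested). The rest of 1A beyond 10 Mb also had more lower calls than all features together, 21.8% of 2615 tested features at 14 DAF and 17.3% at 5 DAF. The rest of 1B had 8.42% higher and 8.38% lower at 14 DAF. At the limit of the rule, the last tested member of 1A, TraesCS1A02G019200 (9642195), had means of 0.131 CPM in TAM112 and 6.46 CPM in TAM111 at 14 DAF. The first tested gene beyond it, TraesCS1A02G020300 (10047783), had 0 CPM in TAM112 and 4.28 CPM in TAM111. The last member and first outside gene had 9.44 and 6.60 CPM in TAM112 and 5.75 and 2.71 CPM in TAM111 on 1B, and 4.85 and 1.84 CPM in TAM112 and 0.0242 and 0.0472 CPM in TAM111 on 1D. Among the first 10 Mb of the other 18 chromosomes, the share called lower in TAM112 at 14 DAF ran from 2.33% to 29.2% with a median of 7.18%, and the share called higher from 2.17% to 30.1% with a median of 8.66%. The 31.9% lower on 1A was above that range, and the 23.5% higher on 1B was within it.

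Other cultivar differences lay in genes that were counted in 1 cultivar only. On 1A, 7 of the 109 members over 1 CPM in a TAM111 group (6.42%) were at the floor in all 6 TAM112 libraries, against 0.517% of all such features. On 1B and 1D the number was 0 of 60 and 0 of 76. In the other direction, 3 of 86 members over 1 CPM in a TAM112 group on 1A (3.49%), 5 of 69 on 1B (7.25%) and 3 of 83 on 1D (3.61%) were at the floor in all 6 TAM111 libraries, against 0.435% of all such features.

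TraesCS1A02G014100 (7697292 to 7698190, minus strand), a gene of 2 exons, had no count in any TAM112 library. It had 77.2, 44.6 and 68.4 CPM in TAM111 at 14 DAF and no count in TAM111 at 5 DAF, at least 840-fold lower in TAM112 at 14 DAF (adjusted p = 2.83e-05). TraesCS1A02G016200 (8628133) had no count in TAM112 at 5 DAF, against 2.77, 1.01 and 1.38 CPM in TAM111 (at least 22.7-fold lower, adjusted p = 0.000532). TraesCS1A02G011800 (6788571) had 0.0246, 0 and 0 CPM in TAM112 at 5 DAF, against 4.89, 3.88 and 5.05 CPM in TAM111 (at least 60.9-fold lower, adjusted p = 2.07e-06). These 3 genes were low in all TAM112 libraries of both stages. Against them, TraesCS1A02G018100 (9369967) had 2.15, 2.31 and 1.28 CPM in TAM112 at 14 DAF, against 0, 0.0362 and 0 CPM in TAM111 (18.0-fold higher or more, adjusted p = 7.71e-05). It was higher at 5 DAF too (at least 16.6-fold, adjusted p = 0.000105). TraesCS1A02G009900 (6151748) had 0.567, 0.722 and 1.0 CPM in TAM112 at 14 DAF and no count in any TAM111 library (7.17-fold higher or more, adjusted p = 0.000763), and at 5 DAF its level was higher by at least 11.6-fold (adjusted p = 0.000853).

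On 1B, TraesCS1B02G012000 (5851440 to 5857886), a gene of 8 exons, had 3.40, 2.02 and 2.53 CPM in TAM112 at 14 DAF and 2.61, 2.54 and 2.06 CPM in TAM112 at 5 DAF, with no count in any TAM111 library. It was at least 24.9-fold higher in TAM112 at 14 DAF (adjusted p = 6.62e-05) and higher by at least 27.1-fold at 5 DAF (adjusted p = 6.65e-05). TraesCS1B02G009700 (4811515) had 1.77, 0.337 and 4.17 CPM in TAM112 at 14 DAF, with TAM111 at 0 (19.7-fold higher or more, adjusted p = 0.0021). At 5 DAF it was at least 24.2-fold higher (adjusted p = 0.00594), a call lost without any 1 replicate of TAM111 at 5 DAF, replicate 1 of TAM112 at 5 DAF or replicate 1 of TAM112 at 14 DAF (adjusted p = 0.0111 to 0.0411). In the other direction, TraesCS1B02G016000 (7632619) had no count in TAM112, against 0.597, 0.507 and 0.667 CPM in TAM111 at 14 DAF (at least 7.82-fold lower, adjusted p = 0.000999), and it was at least 10.7-fold lower at 5 DAF (adjusted p = 0.00149). TraesCS1B02G008600 (4516817) had 0, 0 and 0.0231 CPM in TAM112 at 5 DAF, against 0.492, 1.18 and 0.451 CPM in TAM111 (at least 9.38-fold lower, adjusted p = 0.00459). That call was lost with the replicate block (adjusted p = 0.0101), without replicate 2 of TAM111 or any 1 replicate of TAM112 at 5 DAF, and without replicate 1 of TAM111 at 14 DAF (adjusted p = 0.0107 to 0.0286).

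On 1D, TraesCS1D02G023500 (9884940 to 9887203) had 4.75, 4.5 and 5.29 CPM in TAM112 at 14 DAF, against 0, 0.0725 and 0 CPM in TAM111 (at least 45.5-fold higher, adjusted p = 3.88e-06). It was at least 67.7-fold higher in TAM112 at 5 DAF (adjusted p = 1.75e-06). TraesCS1D02G008100 (4081074) had 1.09, 1.37 and 1.09 CPM in TAM112 at 14 DAF and no count in any TAM111 library (at least 11.1-fold higher, adjusted p = 0.000711). Its call at 5 DAF (at least 7.51-fold higher, adjusted p = 0.0026) was lost with the replicate block (adjusted p = 0.0143) and without replicate 1 of TAM112 at 5 DAF (adjusted p = 0.0107). TraesCS1D02G017500 (7833433), a single-exon gene, had 0.165, 0.337 and 0.751 CPM in TAM112 at 14 DAF, against 3.97, 2.97 and 4.32 CPM in TAM111 (−3.18 ± 0.41, adjusted p = 0.00024). At 5 DAF it had 1.13, 0.754 and 0.763 CPM in TAM112, against 4.89, 4.92 and 5.13 CPM in TAM111 (−2.49 ± 0.39, adjusted p = 0.00154). TraesCS1D02G008600 (4341746), the abundant gene called lower on 1D, had 3.57, 3.49 and 24.6 CPM in TAM112 at 14 DAF, against 538, 718 and 337 CPM in TAM111 (−5.65 ± 1.16, adjusted p = 0.00475). That call was lost without replicate 1 or 2 of TAM112 or any 1 replicate of TAM111 at 14 DAF (adjusted p = 0.0113 to 0.0215). TraesCS1D02G014400 (7031116) had 0.0246, 0 and 0.0231 CPM in TAM112 at 5 DAF, against 0.369, 0.592 and 0.451 CPM in TAM111 (at least 6.22-fold lower, adjusted p = 0.00324). It was lost without replicate 2 of TAM111 or any 1 replicate of TAM112 at 5 DAF (adjusted p = 0.0118 to 0.0167).

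Between the stages, the summed single-exon level of all 3 tips was higher at 14 DAF in both cultivars. Of the 23 tested single-exon members of each tip, 7 on 1A, 10 on 1B and 14 on 1D were called higher at 14 DAF in TAM112, and 13, 16 and 18 in TAM111, with 1 called lower, on 1B in TAM112. Over all tested features, 11.8% were called higher in TAM112 and 13.4% in TAM111. Members silent at 5 DAF in both cultivars passed the filter only through their 14 DAF counts, which fixed their direction. In TAM112 the single-exon sum of 1A was 16.5, 16.0 and 7.93 CPM at 5 DAF, and the 14 DAF mean was 22.2-fold above the 5 DAF mean (7.31-fold without replicate 3 at 14 DAF). On 1B it was 250.0, 76.8 and 30.0 CPM at 5 DAF, with a 14 DAF mean 59.2-fold higher (28.4-fold without replicate 3 at 14 DAF, 132-fold without replicate 1 at 5 DAF). On 1D it was 154, 28.9 and 17.7 CPM at 5 DAF, with a 14 DAF mean 95.4-fold higher (39.0-fold without replicate 3 at 14 DAF, 273-fold without replicate 1 at 5 DAF). In TAM111 the 5 DAF sums were 36.8, 46.7 and 44.9 CPM on 1A, 29.4, 36.5 and 27.1 CPM on 1B, and 17.7, 18.6 and 14.6 CPM on 1D. The 14 DAF means of TAM111 were 549-fold, 1261-fold and 3499-fold above these on 1A, 1B and 1D. At 5 DAF the 1A sum was lower in all TAM112 libraries than in any TAM111 library, while the 1B and 1D sums overlapped between the cultivars. Most of the 1A sum of TAM111 at 5 DAF came from TraesCS1A02G007900, described below.

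In TAM112, 12 of 141 tested members of 1A (8.51%) were called higher at 14 DAF, 17 of 85 on 1B (20%) and 25 of 108 on 1D (23.1%), against 11.8% of all tested features. Lower at 14 DAF were 3, 6 and 4 members (2.13%, 7.06% and 3.70%), against 9.27% of all features. In TAM111, 21 members of 1A (14.9%), 19 of 1B (22.4%) and 26 of 1D (24.1%) were called higher at 14 DAF, against 13.4% of all features, and 1, 5 and 3 members (0.709%, 5.88% and 2.78%) were lower, against 10.6%. The share called higher on 1A was thus near that over all features in both cultivars, while the share called lower was below it. However, the tested members of 1A included 56 non-coding features, with 0 called higher in either cultivar, and 1B and 1D had no tested non-coding feature. Of the tested single-exon and multi-exon members of 1A, 30.4% and 8.06% were called higher in TAM112, and 56.5% and 12.9% in TAM111. Single-exon genes made up 31 of the 54 members called higher at 14 DAF in TAM112 (57.4%) and 47 of the 66 in TAM111 (71.2%). Over all features they were 19.6% of the calls higher at 14 DAF in TAM112 and 19.1% in TAM111, and 24.8% of the tested coding members had a single exon. Called higher at 14 DAF in both cultivars were 6 single-exon genes of 1A, 9 of 1B and 14 of 1D.

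Detection of the abundant genes at 5 DAF differed between libraries. Of the 36 abundant genes, 34 were over 3 counts in replicate 1 of TAM112, 26 in replicate 2 and 1 in replicate 3, and 10 were over 3 counts in any TAM111 library. With replicate 1 of TAM112, the single-exon sum of the 3 tips was 2.20-fold that of TAM111 at 5 DAF, and without it 0.977-fold. Between cultivars at 5 DAF, 1 of the 36 was called by edgeR, lower in TAM112. DESeq2 called 16 higher in TAM112, and edgeR called 7 higher at an adjusted p under 0.05 and 8 higher without replicate 3 of TAM112 at 5 DAF. Over all features, DESeq2 called 3757 of 65080, 44.5% of them higher in TAM112. At an adjusted p under 0.05 edgeR called 3866 of 65080 (46.6% higher). Without replicate 3 of TAM112 at 5 DAF it called 2355 of 66789 (45.3% higher). The gene of the 36 called lower by edgeR was TraesCS1A02G007900 (4063197 to 4063406), named after its values were seen. It had 2.49, 5.36 and 2.24 CPM in TAM112 at 5 DAF, against 24.8, 34.2 and 29.6 CPM in TAM111 (−3.14 ± 0.32, adjusted p = 5.08e-05). The single-exon sum of 1A in the same TAM111 libraries was 36.8, 46.7 and 44.9 CPM, so this gene made up most of it. In the comparison of stages in TAM112, 26 of the 36 were called higher at 14 DAF, 13 without replicate 2 at 5 DAF, 21 without replicate 3 at 14 DAF and 17 with the replicate block. In TAM111 it was 35 of 36. The 36 genes were picked for a high level at 14 DAF, so these stage counts lean to higher calls and are a description only. Over all tested features, 11.8% were called higher at 14 DAF in TAM112 and 13.4% in TAM111.

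Among single members, TraesCS1D02G000200 (84681 to 85607), the abundant gene nearest to a chromosome end, had no count in TAM111 at 5 DAF and 6820.5, 7236 and 4230.3 CPM in TAM111 at 14 DAF. The difference was at least 68800-fold, with the higher level at 14 DAF (adjusted p = 0.000254). In TAM112 it had 207, 348 and 1216 CPM at 14 DAF, against 10.9, 1.31 and 0 CPM at 5 DAF. TraesCS1A02G007400 and TraesCS1B02G011523 had no count in TAM111 at 5 DAF either and were at least 54700-fold (adjusted p = 8.32e-05) and 56500-fold (adjusted p = 0.000143) higher there at 14 DAF. In TAM112 TraesCS1A02G007400 rose as well (7.73 ± 1.34 on the log2 scale, adjusted p = 0.0014). TraesCS1B02G013500 (6436426) had 180.1, 249.8 and 1505 CPM in TAM112 at 14 DAF, against 4.41, 0.140 and 0 CPM at 5 DAF (8.73 ± 1.63, adjusted p = 0.00137). TraesCS1D02G012100 (6410934), a gene of 2 exons, had 9.28, 11.9 and 4.23 CPM in TAM112 at 14 DAF and no count at 5 DAF in either cultivar (adjusted p = 5.13e-05).

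Falls between the stages were smaller and lay outside the abundant genes. TraesCS1D02G003700 (2066324) fell in TAM111, with 22.5, 21.1 and 22.2 CPM at 14 DAF against 37.9, 51.8 and 58.1 CPM at 5 DAF (−1.17 ± 0.18, adjusted p = 0.000391). TraesCS1B02G002400 (1778773) had 0.246, 0.0725 and 0.211 CPM in TAM111 at 14 DAF, against 1.05, 0.977 and 1.30 CPM at 5 DAF (−2.62 ± 0.42, adjusted p = 0.000446). TraesCS1B02G001200 (1265734) had 0.496, 0.12 and 0.612 CPM in TAM112 at 14 DAF, against 2.90, 4.69 and 1.94 CPM at 5 DAF (−2.96 ± 0.57, adjusted p = 0.00172). TraesCS1A02G012400 (7109888) had 0.189, 0.193 and 0.445 CPM in TAM112 at 14 DAF, against 2.02, 2.18 and 1.13 CPM at 5 DAF (−2.69 ± 0.35, adjusted p = 0.000156). All 4 kept to separate ranges at the 2 stages. TraesCS1D02G012200 (6461577) fell in TAM112 (−2.39 ± 0.49, adjusted p = 0.00235), a call lost without replicate 1 at 5 DAF or replicate 1 or 2 at 14 DAF of TAM112 (adjusted p = 0.0101 to 0.0128). TraesCS1A02G009100 (5496528) fell in TAM111 (−1.99 ± 0.51, adjusted p = 0.00785), and this was lost in 9 of the 12 fits that left out 1 library, all except those without replicate 2 of TAM111 at 14 DAF or replicate 2 or 3 of TAM112 at 5 DAF (adjusted p = 0.01 to 0.0306).

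The interaction asked whether the cultivar difference itself changed between 5 and 14 DAF. None of the 334 tested members was called (0 on each tip), against 0.309% of all tested features, in the quasi-likelihood F test of edgeR after Benjamini-Hochberg adjustment. The smallest adjusted p among members was 0.0102. At an unadjusted p under 0.05 there were 93 members, 23 on 1A, 31 on 1B and 39 on 1D. At an adjusted p under 0.05 there were 24, of which 22 were negative and 18 were single-exon genes. Negative means that the log2 ratio of TAM112 to TAM111 was lower at 14 DAF than at 5 DAF. It need not mean a deficit at both stages. The tested single-exon members of 1B and 1D had positive median log2 fold changes at 5 DAF (5.17 and 6.37). With groups at the floor set to their bound, these medians were 3.43 and 3.05. Their sums at 5 DAF were highest in replicate 1 of TAM112. DESeq2's Wald test called 31 members. Without replicate 3 of TAM112 at 5 DAF the edgeR fit called 17, without replicate 3 of TAM112 at 14 DAF it called 9, and without replicate 1 of TAM111 at 5 DAF it called 1. The shares over all features under these other thresholds and fits are not given. The counts from them therefore do not set the tips apart from the rest of the features.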

How the data were processed

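Grain RNA of TAM112 and TAM111 at 14 and 5 DAF was sequenced in 12 libraries. Per the labels and the study's methods, the authors trimmed the reads, aligned them to Chinese Spring with HISAT2 and counted them per feature with featureCounts of the Subread package; the deposited values are raw counts per feature, with feature length. Its strand and multi-mapping settings are not given in the sources used here. Every value column was used (0 left out), and 0 rows lacked a feature name. Depth was 31916077 to 40464882 counts, so that 1 count was worth 0.0231 to 0.0362 CPM.

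Groups were taken from the sample titles. The main test was the quasi-likelihood F test of edgeR 4.0.16 (R 4.3.3, limma 3.58.1) over all 12 libraries with 1 mean per group, TMM factors and the default expression filter (65080 features), with Benjamini-Hochberg adjustment over all of them. Features with a log2 fold change over 1 in size and adjusted p under 0.01 were called, the study's own limits. The SE was obtained from each log2 fold change and its F statistic. CPM used TMM-scaled library sizes, TPM the deposited counts and lengths, and shares of all counts the raw counts. A group was at the floor when no library exceeded 3 counts, and a fold against it is a lower bound set at 3 counts per library. The script was tested on simulated data. Tables were made with Python 3.11.15 and pandas 2.3.3.

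Members named are the 4 of highest TPM at 14 DAF per tip, the 2 calls with the largest fold change in each direction per cultivar comparison, and the 1 largest per direction for each stage comparison, among members whose groups did not overlap; others are said to be named after their values were seen. The members and lists were chosen with earlier results of these data known. Alternatives were DESeq2 1.42.0 (its Wald test, and its size factors in edgeR), library sizes alone, no filter, at least 10 counts in every library, adjusted p under 0.05, a replicate block, and leaving out each library.

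The replicate numbers were checked for pairing by the correlation of deviations from group means. Between cultivars at 5 DAF, the libraries with the same number correlated at 0.365, 0.340 and 0.528. The labels name no pairing, and the main test did not pair the libraries, so its results at 5 DAF do not account for this. Only the replicate block, an alternative fit over all 12 libraries, used the numbers. In the other comparisons the correlations were −0.283 to 0.107.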

Additional observations from a re-analysis of the deposited data

How the results depend on the processing

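Of 247 counts of called members recomputed under the alternatives, 215 stayed within 1.5 times the main count and 32 did not; of 828 results for named members, 780 kept their call, 45 lost it, 3 gained it and 0 changed direction. With adjusted p under 0.05 the calls were 26 on 1A (stage in TAM112), 20 on 1B (cultivar, 5 DAF), 38 on 1B (stage in TAM112), 32 and 16 on 1D (cultivar, 14 and 5 DAF) and 24 for the interaction. Library sizes alone gave 28 on 1D (cultivar, 14 DAF) and 3 for the interaction. DESeq2's Wald test gave 22 on 1B and 20 on 1D (cultivar, 5 DAF) and 31 for the interaction. No filter gave 4 for the interaction. At least 10 counts in every library, which drops genes silent in 1 group, gave 26, 21, 4 and 1 calls on 1A (cultivar at 14 and 5 DAF, stage in TAM112 and in TAM111), 12, 5, 9 and 4 on 1B, 7, 3, 5 and 3 on 1D, and 1 for the interaction.

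Leaving out 1 library gave 39 to 50, 30 to 37, 10 to 15 and 18 to 24 calls on 1A (same order), 21 to 34, 8 to 15, 16 to 25 and 20 to 27 on 1B, 10 to 24, 4 to 13, 22 to 33 and 25 to 31 on 1D, and 0 to 17 for the interaction. The cause of these differences was not tested.

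With the replicate block the calls were 44, 33, 11 and 21 on 1A, 28, 11, 17 and 22 on 1B, 15, 7, 25 and 27 on 1D and 0 for the interaction, none beyond 1.5 times the main count. Among named members, the block also ended the call of TraesCS1A02G007400 and TraesCS1D02G008600 at 14 DAF and TraesCS1A02G009100 between stages in TAM111 (adjusted p = 0.0141, 0.0130 and 0.0133), where the numbers do not pair the libraries.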
